A study of Cucumis x hytivus and Cucumis hystrix and Cucumis sativus with 8 samples.

Results

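The miRNAs of 5 families that plants are known to tie to their sulfate, phosphate or nitrogen status (miR395, miR399, miR827, miR2111 and miR169) were followed in Cucumis leaves. Members were chosen by name, with earlier results of these data known. They are every listed mature sequence of these families, either arm of the hairpin included, and of miR826, for which 0 were listed. This gave 34 of 733 distinct mature sequences, of which 16 belong to miR169, 7 to miR399, 5 to miR2111, 3 to miR395 and 3 to miR827. The leaves came from Cucumis × hytivus, a synthetic allotetraploid that joins the genomes of C. hystrix, a wild species, and C. sativus, the cucumber, and had been selfed to the S10 generation, and from both diploid parents, with C. sativus represented by 'BeijingJietou'. The 4 groups, of 2 libraries each, were the young leaf (the topmost) and the mature leaf (the first to be fully developed) of the allotetraploid, the mature leaf of C. hystrix and the mature leaf of C. sativus. All seedlings stood in climate chambers under 1 setting and received the same diluted nutrient solution, so no nutrient was varied. The labels do not say whether the 2 libraries of a group are separate plants. P-values therefore reflect the spread between libraries alone, and that spread may be technical.

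In plants, these miRNAs respond to the supply of a nutrient, and the transcripts they limit differ in what they do. miR395 is induced by sulfate shortage and cuts transcripts of ATP sulfurylases, the first step of sulfate assimilation, and of a low-affinity sulfate transporter. miR399 is induced by phosphate shortage, travels in the phloem and limits PHO2, the ubiquitin-conjugating enzyme that holds back phosphate uptake and its loading into the xylem. miR827, also induced by phosphate shortage, limits the SPX-domain proteins NLA, in Arabidopsis, and SPX-MFS, in rice. miR2111 is induced by phosphate shortage in Arabidopsis, and in Lotus it moves from shoot to root and limits TML, an F-box protein that restrains nodulation. miR169 limits the NF-YA transcription factors and is lowered by nitrogen shortage in Arabidopsis.

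The mature sequences on which the values below rest are shown as the deposited table lists them, 5′ to 3′ and with T for U, so that members with the same seed can be compared. Capitals mark the seed, bases 2 to 8, and coordinates are those the table gives for the hairpin on a genome whose build was not named in the sources used here. The phosphate-linked miR827 lies at chr2:8245960-8246058 on the minus strand, and miR399d and miR399g come from opposite arms of the hairpin at chr5:5408044-5408124 on the plus strand. miR2111a is listed at chr3:27889248-27889347 on the plus strand and at chr4:12220917-12221120 on the minus strand, and a second sequence of that name is the opposite arm at the first of these loci. The sulfate-linked miR395a is listed at 3 loci of chromosome 5.
miR827: tTAGATGAccatcaacgaacg
miR399d: tGCCAAAGgagagttgcccttc
miR399g: aGGGCTTCtctccattggcagg
miR2111a: tAATCTGCatcctgaggttta
miR2111a, opposite arm: gCCCTCGGgtcgcagattacc
miR395a: tGAAGTGTttgggggaactct

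Within miR169 the seed divides the abundant members into groups. miR169g, miR169f and a sequence that the table lists as miR169 with the code cpa, here miR169 (cpa), have the seed AGCCAAG, miR169a and miR169c have AGCCAAA, miR169r is shifted by its first bases and has GAGCCAA, and miR169f-p3, the opposite arm of the miR169f hairpin, has CAAGTCG. The 34 members hold 22 seeds, of which 8 are shared by at least 2 members, and each of these 8 stays within 1 family. The seed of miR169g-p3, GCAATTC, is also that of miR5564b, a listed sequence outside the members. miR169g lies at chr2:4754810-4754943 (minus strand), miR169r at chr1:15612199-15612289 (plus), miR169f with miR169f-p3 at chr1:4895776-4895877 (minus), miR169a at chr5:7354643-7354762 (minus) and miR169c at chr5:7359409-7359536 (minus).
miR169g: aAGCCAAGgatgaattgccgg
miR169f: cAGCCAAGgatgacttgccgg
miR169 (cpa): cAGCCAAGgatgacttgcct
miR169a: tAGCCAAAaatgacttgcctgc
miR169c: tAGCCAAAgatgacttgcctgt
miR169r: tGAGCCAAgaatgacttgccggc
miR169f-p3: gCAAGTCGtccttggctacc

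Several of these sequences are close enough that a counting rule that allows mismatches could move reads between them. miR169f differs from miR169g by an edit distance of 2 and from miR169 (cpa) by 2, miR169a from miR169c by 2, and miR2111a from the longer miR2111a-5p by 1. Their levels are therefore uncertain to that extent. The loci are also close to each other: the hairpins of miR169a and miR169c lie 4646 bases apart on 1 strand, those of miR169r and miR169k 4125, those of miR399 and miR399d 4472, and 2 of the miR395a hairpins 12480. The hairpins listed for miR169f and miR169 (cpa) overlap by 68 bases.

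The libraries held between 99196 and 464306 listed reads, each distinct sequence taken once, and detected between 335 and 562 of the 733 sequences. The members were a small share, between 0.0697% and 0.188% of these reads, and between 14 and 22 of the 34 were detected per library. Levels are given in CPM, deposited reads per 1000000 of a library size scaled by TMM, a method that equates the bulk of the sequences between libraries. A count of 0 in a library allows up to 3 reads, or 7.58 to 17.6 CPM, and such limits cover counting error only. The second C. sativus library stands apart: it had the fewest reads, 56.8% of them in families under which RNA fragments tend to be listed against 5.65% to 15.8% in the others, and the Spearman correlation within its group was 0.572 against 0.823 to 0.952 in the other groups. The table lists miRNAs only, so the leaf identity could not be checked against marker genes, and in such bulk samples fewer cells of a type and less RNA per cell cannot be told apart.

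Summed over its sequences, miR169 was the most abundant of the 5 families, with 1830.7 reads in all, and miR399 the scarcest, with 90.5. The miR169 sum was 760.2 and 410.1 CPM in the young leaf, 990.9 and 932.4 in the mature allotetraploid leaf, 1257 and 734.3 in C. hystrix leaves and 1208 and 282.4 in C. sativus leaves. The group ranges overlapped except between the young and the mature leaf, where both mature libraries were higher. The miR399 sum of 7 sequences was 40.4 and 46.5 CPM in the young leaf, 40.2 and 24.3 in the mature allotetraploid leaf, 7.06 and 105.7 in C. hystrix leaves and 50.3 and 30.3 in C. sativus leaves. The lowest and the highest library were thus the 2 of C. hystrix. The miR827, miR395 and miR2111 sums were made up largely of a single sequence each, described below.

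**Figure D1:**
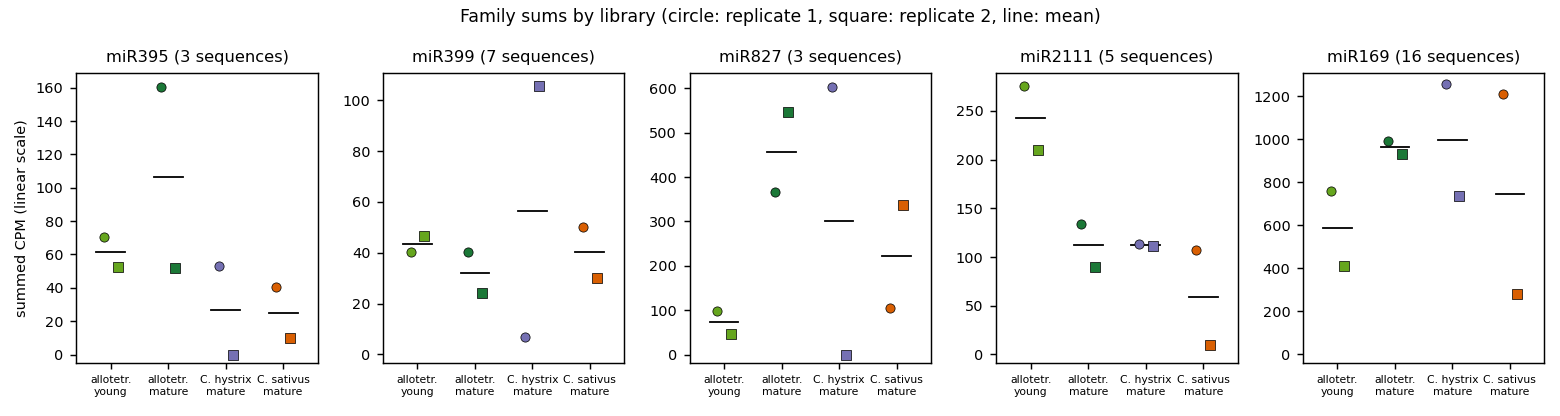
Summed CPM (linear axis, each panel with its own scale) of each family in the 8 libraries; circles are replicate 1, squares replicate 2 and lines the group mean. Both libraries of the mature allotetraploid leaf lie above both of the young leaf for miR827, and the C. hystrix libraries lie 603.8 CPM apart for the same family.

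A filter on low counts left 10 of the 34 members among 208 sequences tested: 7 of miR169, and 1 each of miR395, miR827 and miR2111. Averaged over all 8 libraries, the most abundant was miR169f-p3 at 355 CPM, followed by miR827 at 258, miR169c and miR169r at 124 each, miR2111a at 102, miR169a at 67.1, miR169g at 53.0, miR395a at 48.0, miR169f at 28.3 and miR169 (cpa) at 21.4. The ranges over the libraries overlapped between every pair of neighbours in that order. The values of miR395a and miR2111a, which are listed at 3 and 2 loci, may be shares of their reads and are not on 1 scale with the others.

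Between the young and the mature leaf of the allotetraploid, miR827 showed the separation with the lowest p-value among the members, with less in the young leaf. miR827 was at 98.5 and 46.5 CPM (72.5 ± 36.7, SD, n = 2) in the young leaf, against 366 and 530.3 (448 ± 116) in the mature leaf. Both young libraries lay below both mature ones. The log2 fold change, young over mature, was −2.62 ± 1.47 (SE), which did not pass edgeR's quasi-likelihood test (adjusted p = 0.51 after Benjamini-Hochberg adjustment over all 208 sequences). For the family sum it was −2.65 ± 1.16 (adjusted p = 0.34 over 86 families and unnumbered sequences in the same edgeR test).

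This value depended on the libraries that set the spread. The C. hystrix libraries, at 603.8 and 0 CPM of miR827, and the C. sativus libraries, at 104.0 and 312.7, enter the estimate of the spread when all 4 groups are fitted together. With only the young and mature allotetraploid libraries in the edgeR fit, the log2 fold change of miR827 was −2.69 ± 0.62 and passed (adjusted p = 0.0058). Without the second library of C. hystrix and of C. sativus, a choice made after seeing the data, it was −2.79 ± 0.64 (adjusted p = 2.6e-04 in the same edgeR test). The background was also higher under these settings: 21.4% of 201 and 15.0% of 307 sequences passed, against 1.92% of 208 in the fit of all libraries.

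The miR169f hairpin gave the second such pair. miR169f-p3 was at 217.2 and 119.3 CPM (168.2 ± 69.3, SD, n = 2) in the young leaf, against 642.7 and 568.5 (606 ± 52.5) in the mature leaf, and miR169f, from the other arm, was at 12.6 and 0 CPM against 71.4 and 41.6. Both arms were higher in both mature libraries. The log2 fold change of miR169f-p3 was −1.84 ± 1.13 (adjusted p = 0.55) and that of miR169f −3.04 ± 1.76 (adjusted p = 0.52), so neither passed in edgeR's test. As for miR827, the value of miR169f-p3 passed in edgeR with only the groups compared (−1.89 ± 0.56, adjusted p = 0.028) and without the second library of each parent (−1.99 ± 0.60, adjusted p = 0.011).

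2 other members were higher in both young libraries. miR2111a was at 197.0 and 160 CPM in the young leaf against 107.1 and 62.4 in the mature leaf, a log2 fold change of 1.07 ± 1.29. miR169g was at 35.4 and 43.6 CPM against 13.4 and 0, a log2 fold change of 2.56 ± 2.03 (adjusted p = 0.75 in edgeR). Both mature values of miR169g rest on 3 reads or fewer. miR395a, miR169r, miR169a and miR169c had values that overlapped between the stages, with log2 fold changes within 1 SE of 0. miR169 (cpa), at 2.53 and 14.5 CPM against 4.46 and 62.4, had a log2 fold change of −1.95 ± 1.86, which became 0.97 without the second mature library.

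In this comparison edgeR called 0 of the 10 members, against 1.92% of all 208 sequences, and 0 members had an unadjusted p under 0.05. DESeq2 also called 0, with 0 unadjusted p-values under 0.05, and limma voom called 0, with 1. Among the 5 family sums 0 were called and 1, miR827, had an unadjusted p under 0.05, with 3.49% of 86 sums called in all. Groups did not overlap for 2 members that were higher and 3 that were lower in the young leaf, against 34.6% and 29.8% of all sequences, so such separation was common between these groups. The members' median log2 fold change was −0.14, beside −0.03 over all sequences, with 5 members above and 5 below 0.

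**Figure D2:**
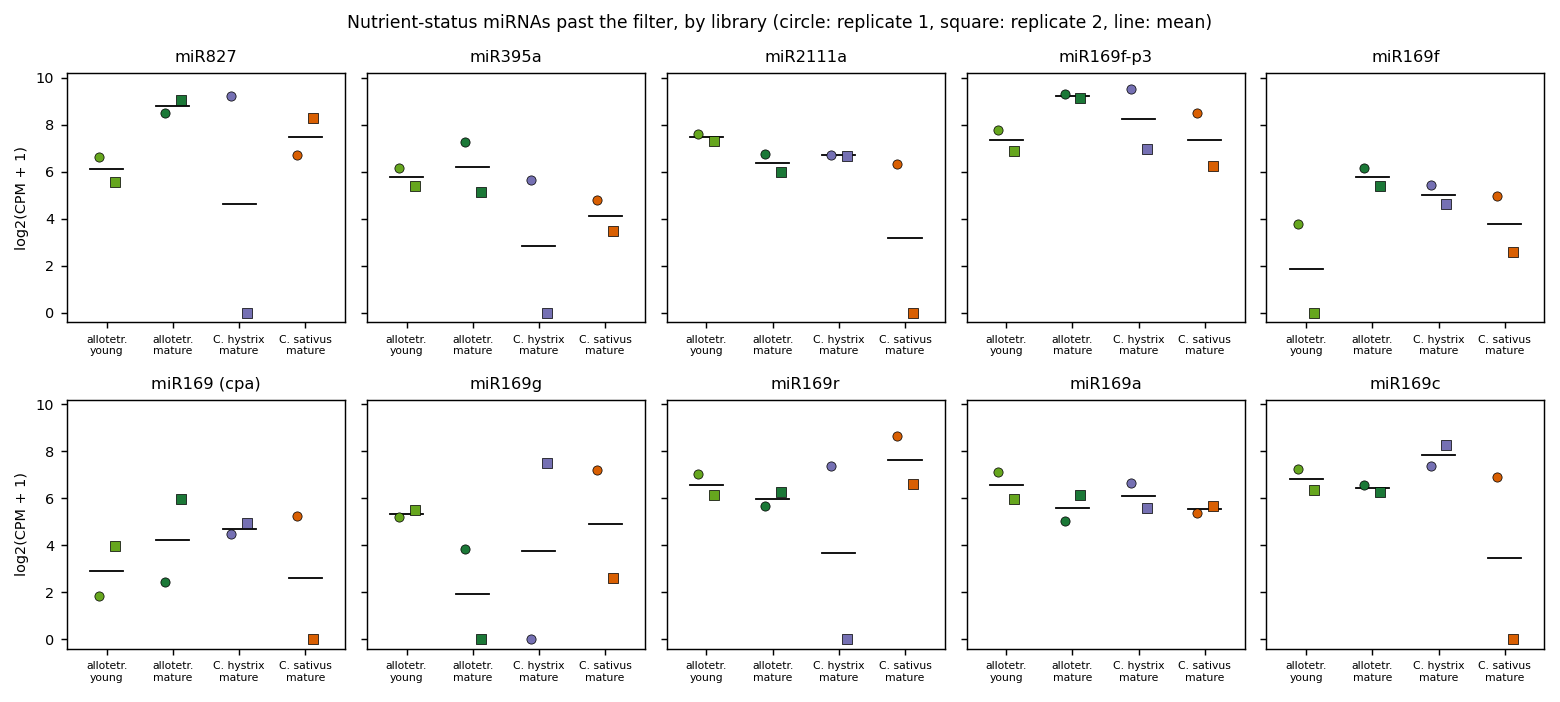
Level of each of the 10 members past the filter on the log2(CPM + 1) axis, by group; circles are replicate 1, squares replicate 2 and lines the mean of the 2 points. miR827, miR169f-p3 and miR169f lie higher in both mature than in both young libraries of the allotetraploid, and 1 library of C. hystrix or C. sativus is at 0 for miR827, miR395a, miR169g, miR2111a, miR169c and miR169 (cpa), and for miR169r, whose 0.5 read there was rounded to 0.

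Set against its parents, the mature allotetraploid leaf held 0 members that passed the test. miR395a had the most positive differences: its allotetraploid libraries were at 151.8 and 34.7 CPM, those of C. hystrix at 49.4 and 0 and those of C. sativus at 26.8 and 10.1. On the TMM scale both allotetraploid libraries were above both of C. sativus, while 1 of them lay between those of C. hystrix. The log2 fold change was 1.82 ± 1.57 over C. hystrix, 2.27 ± 1.60 over C. sativus and 2.05 ± 1.27 over the mid-parent, which averages the 2 parents' log values (adjusted p = 0.98, 0.84 and 0.99 in edgeR). Single libraries moved these values: without the first allotetraploid library they were 0.62, 1.05 and 0.83, and without the second C. hystrix library the value over C. hystrix was 0.90. These comparisons share the allotetraploid libraries and are not independent of each other.

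miR169g had the most negative differences, and their sign depended on single libraries. The allotetraploid libraries were at 13.4 and 0 CPM, those of C. hystrix at 0 and 182.1 and those of C. sativus at 144.2 and 5.04. In each parent 1 library held nearly all of its reads, and the values overlapped those of the allotetraploid. The log2 fold change was −3.73 ± 2.09 against C. hystrix, −3.49 ± 2.07 against C. sativus and −3.61 ± 1.97 against the mid-parent (adjusted p = 0.98, 0.84 and 0.99 in edgeR). Without the second C. hystrix library it was 3.96 against C. hystrix and 0.27 against the mid-parent, and without the first C. sativus library it was 0.09 against C. sativus.

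2 further miR169 members were more than 1 SE below 1 parent. miR169c was at 93.7 and 76.3 CPM in the allotetraploid, below both values of C. hystrix, 165.9 and 305.5, with a log2 fold change of −1.46 ± 1.32. miR169r was at 49.1 and 76.3 CPM, below both values of C. sativus, 405.9 and 95.8, with a log2 fold change of −1.99 ± 1.40 (adjusted p = 0.84 in edgeR). Without the second library of each parent that difference was −2.37 ± 0.76 and passed in edgeR (adjusted p = 0.037, with 5.21% of 307 sequences called). It was −0.70 ± 1.34 without the first C. sativus library (adjusted p = 0.81 in edgeR), and over the 21 alternatives the adjusted p ran from 0.037 to 1.

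The allotetraploid was also above both C. sativus libraries for miR169f-p3, with 358.9 and 75.7 CPM in C. sativus. The log2 fold change was 1.47 ± 1.12 over C. sativus and 0.98 ± 0.92 over the mid-parent. For miR827 and miR169f the allotetraploid values were likewise above both of C. sativus, with log2 fold changes of 1.11 ± 1.40 and 1.61 ± 1.67. That of miR827 turned to −0.93 with scaling to the conserved families. All of these missed the threshold in edgeR's test. The comparison with C. sativus rests in part on its second library, which had 56.8% fragment-like reads. TMM scaled that library from 99196 listed reads to a size of 198267, and the second mature allotetraploid library from 378234 to 288491. The separations of miR169f-p3, miR827, miR169f and miR395a from C. sativus hold only on that scale. As shares of the listed reads, their values overlap between the groups. Whether the fragment-like reads bear on these differences was not tested.

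Counted over the 10 members, the comparison with C. hystrix gave 0 calls in edgeR, as it did among all sequences (0%), and that with C. sativus gave 0, with 0.481% called among all. The comparison with the mid-parent also gave 0 calls, with 0% among all. In these 3 comparisons 0 members had an unadjusted p under 0.05 in edgeR. DESeq2 and limma voom called 0 in each, and DESeq2 gave 1 unadjusted p under 0.05 against C. hystrix and 1 against the mid-parent. Groups did not overlap for 0 members higher (8.17% of all sequences) and 1 lower (10.6%) than in C. hystrix, and for 4 higher (19.2%) and 1 lower (10.6%) than in C. sativus. As shares of the listed reads, the 4 higher ones overlap with C. sativus. The members' median log2 fold change was 0.07 against C. hystrix, 0.91 against C. sativus and 0.49 against the mid-parent, beside 0.17, 0.16 and 0.14 over all sequences.

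**Figure D3:**
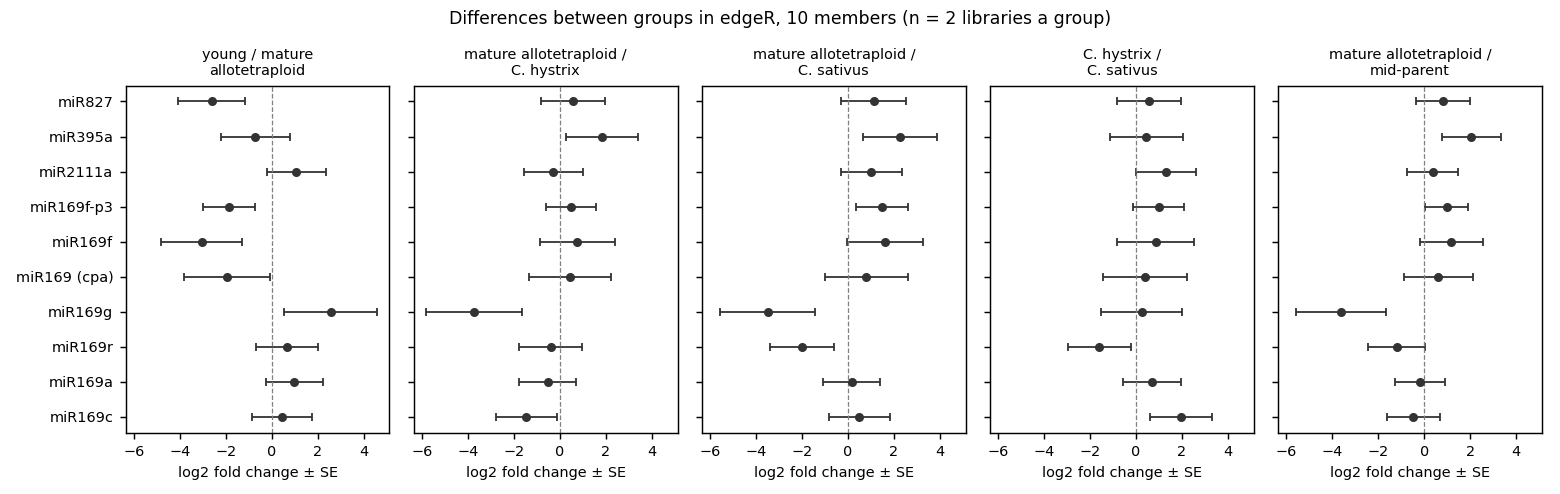
Log2 fold changes with their SE (edgeR, 2 libraries a group) of the 10 members in the 5 comparisons; the dashed line is 0 and positive values are higher in the group named first. Most intervals of 1 SE reach 0 in the 3 comparisons with the parents and between the parents, where 6, 7 or 8 of 10 do, and 5 do so between young and mature leaf.

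The parents themselves were more than 1 SE apart in miR169c and miR169r. miR169c, at 165.9 and 305.5 CPM in C. hystrix, was at 117.4 and 0 in C. sativus, and the log2 fold change, C. hystrix over C. sativus, was 1.96 ± 1.34 (adjusted p = 0.95 in edgeR). miR169r was at 162.4 and 0 CPM in C. hystrix, against 405.9 and 95.8 in the cucumber, with overlapping values and a log2 fold change of −1.60 ± 1.37 (adjusted p = 0.96 in edgeR). miR2111a was nearly even in C. hystrix, at 105.9 and 99.9 CPM, and at 80.5 and 0 in C. sativus, with a log2 fold change of 1.30 ± 1.32.

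miR827 was within 1 SE of 0 between the parents, at 0.55 ± 1.39, since the 2 values of C. hystrix lie on both sides of those of C. sativus. Over the alternatives it ran from −8.94, with the C. hystrix library at 0 alone, to 2.77. Without the second library of each parent, the miR827 family sum passed in edgeR against C. sativus, with 2.44 ± 0.74 in the mature allotetraploid (adjusted p = 0.03; 4.08% of 147 sums called) and 2.77 ± 0.80 in C. hystrix (adjusted p = 0.029; 2.04% called). The single sequence did not pass there, with 2.41 ± 0.83 (adjusted p = 0.066) and 2.77 ± 0.90 (adjusted p = 0.074).

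Of the 10 members 0 were called between the parents in edgeR, with 0.962% called among all sequences, and 0 had an unadjusted p under 0.05; DESeq2 called 0 with 0 such p-values, and limma voom 0 with 1. Groups did not overlap for 2 members higher (18.8% of all sequences) and 0 lower (12.5%) in C. hystrix. These 2, miR169c and miR2111a, overlap between the parents as shares of the listed reads, so their separation holds only on the TMM scale. The members' median log2 fold change was 0.62 beside −0.11 over all sequences. Scaling to the conserved miRNA families moved the median of all sequences by −1.53, so the signs of the members' values in this comparison hold relative to the TMM scaling.

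The calls against C. sativus depended on which of its libraries was used. With the first left out, so that the second, assumed to vary like the other groups, stood alone, edgeR called miR169f-p3 (log2 fold change 2.85 ± 0.98, adjusted p = 0.036), miR169c and miR2111a higher in the mature allotetraploid, and miR169c and miR2111a higher in C. hystrix. The last 2 sequences have 0 reads in that library, so their fitted folds depend on the prior count and are not given. In that setting 18.3% and 15.0% of 300 sequences were called in the 2 comparisons.

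The 2 libraries of C. hystrix disagreed on miR827 more than on any other sequence that was at 0 in one of them. miR827 was at 603.8 CPM in the first library and had 0 reads in the second, which allows up to 17.6 CPM. Of the 208 sequences tested, 4 (1.92%) had at least 20 reads in the first library and 0 in the second, and miR827 had the most reads among them. In the other direction miR169g, with 31 reads in the second library and 0 in the first, was the only sequence of the 208 (0.481%). In C. sativus, 14 sequences (6.73%) had at least 20 reads in the first library and 0 in the second, among them miR169c with 35 and miR2111a with 24.5 reads. The young leaf had 0 such sequences in either direction.

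The members' spread within groups was wider than that of all sequences in the young leaf and in C. hystrix. In the mature allotetraploid leaf it was narrower, and in C. sativus it was close. Spread is given as the members' median difference between the 2 libraries of a group on the log2(CPM + 1) scale. It was 0.881 in the young leaf, 0.768 in the mature allotetraploid leaf, 1.81 in C. hystrix and 2.30 in C. sativus. Over all 208 sequences it was 0.411, 0.959, 0.925 and 2.22 in the same order.

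The 2 arms of the miR169f hairpin were unequal in every library. miR169f-p3 had 787 reads in all and miR169f, the arm that holds the conserved miR169 sequence, had 59. The share of miR169f-p3 was 94.5% and 100% in the young leaf, 90.0% and 93.2% in the mature allotetraploid leaf, 94.6% and 84.0% in C. hystrix leaves and 92.2% and 93.8% in C. sativus leaves. Both young shares lay above both mature allotetraploid shares, and no test was made. The 95% Wilson intervals, which cover counting error only, ran from 87.8% to 97.6% and from 91.4% to 100% in the young leaf, against 84.4% to 93.8% and 88.5% to 96.1% in the mature leaf, and overlapped. The 2 arms pair over 17 bases with a predicted energy of −32.5 kcal/mol. The shares leave out miR169 (cpa), whose listed hairpin overlaps, with 1 and 5 reads in the young leaf and 1 and 18 in the mature leaf. Counted with the conserved arm, those reads would make the shares of the stages overlap.

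That excess of the arm named p3 was not shared by the other miR169 hairpins with both arms listed. The conserved arm had the more reads for miR169g, with 107 against 7, for miR169r, with 294.5 against 34 for the sequence listed as miR169t, for miR169k, with 44.8 against 1, for miR169c, with 265 against 7, and for miR169e, with 8.83 against 2. The overlapping hairpin listed for miR169 (cpa) had 47 reads on the conserved arm against 1 on its p3 arm. It may be no separate case, since its p3 arm is an edit distance of 1 from miR169f-p3. For miR2111a the opposite arm had 42 reads on chromosome 3 and 12 on chromosome 4, against 246.5 reads listed at both loci. For miR395 the opposite arm had 5 reads at 1 locus, against 109.67 listed at 3 loci. In the miR399 hairpin at chr5:5408044-5408124 the arm listed as miR399g had 42.5 reads against 24.5 for miR399d, the arm with the conserved miR399 sequence, while in that at chr5:5412597-5412675 miR399d stood against 1.5 reads for miR399e-p5. The reads of miR399d, miR2111a and miR395a are listed at several loci and may be shares, so their arm counts may not be those of 1 hairpin. In all, 12 hairpins had both arms listed, and these paired over 13 to 19 bases.

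The make-up of the miR169 reads was unlike between the leaf stages and, in C. hystrix, between the 2 libraries. miR169f-p3 was 28.6% and 29.1% of the miR169 reads in the young leaf, 64.7% and 61% in the mature allotetraploid leaf, 58.7% and 16.8% in C. hystrix leaves and 29.8% and 26.5% in C. sativus leaves. The young and the mature allotetraploid libraries did not overlap, and the 2 C. hystrix libraries lay further apart than any other pair of a group. In the second C. hystrix library miR169c (41.6%) and miR169g (24.8%) took the larger shares, and in C. sativus miR169r took 33.7% and 33.6%. The shares rest on between 56.5 and 359.5 reads per library and, as parts of a whole, move together.

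**Figure D4:**
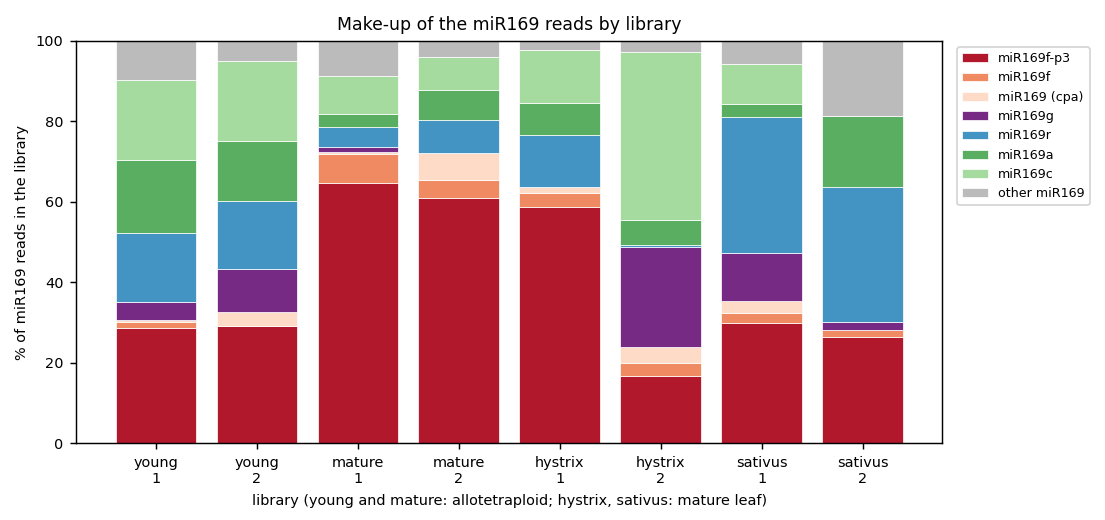
Share of each miR169 sequence in the miR169 reads of each library, in percent; colours are sequences and grey is the rest. miR169f-p3 fills 64.7% and 61% in the mature allotetraploid leaf and 28.6% and 29.1% in the young leaf, and miR169c and miR169g fill most of the second C. hystrix bar.

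The other 24 members did not pass the filter, and 14 of them had under 10 reads in all 8 libraries together. miR399d was at 10.1 and 23.3 CPM in the young leaf, 0 and 0 in the mature allotetraploid leaf, 0 and 35.2 in C. hystrix leaves and 23.5 and 0 in C. sativus leaves. A count of 0 in the mature allotetraploid leaf allows up to 13.4 and 10.4 CPM. The young value of 10.1 lies below both limits and that of 23.3 above both. As miR399d did not pass the filter, the difference was not tested in the main fit. miR399g was at 25.3 and 17.5 CPM in the young leaf, 40.2 and 0 in the mature allotetraploid leaf, 3.53 and 35.2 in C. hystrix leaves and 26.8 and 10.1 in C. sativus leaves, with overlapping groups throughout. miR399c-p5 had 17 reads, at most 7 in 1 library.

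The opposite arm of miR2111a, with 42 reads, had reads in all 4 libraries of the allotetraploid. It was at 42.9 and 32 CPM in the young leaf, 17.9 and 24.3 in the mature leaf, 10.6 and 0 in C. hystrix leaves and 0 in both C. sativus libraries. The order young above mature is that of miR2111a itself, in values that do not overlap, but the sequence did not pass the main filter. With only the groups compared, where it was tested, its log2 fold change was 0.74 ± 1.15 (adjusted p = 0.71 in edgeR). The other members with at least 10 reads were miR169k (44.8), miR169t (34), miR2111b-p3 (12), its namesake of 18 bases (12), a shorter miR395a with the code mdm (11) and miR2111a-5p (10). Some were listed from 1 library: a second miR827 sequence, with the code nta, had 5 reads, all in the second C. sativus library, and miR827-5p and miR395b-p5 had 5 reads each, all in the second mature allotetraploid library.

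Members whose pattern over the 8 libraries was most like another sequence are described by Pearson's r on log2(CPM + 1), with no test. The sequences most like miR827 were PC-121-3p (r = 0.853), miR398b (0.847) and miR171c-p5 (0.838), and those most like miR395a were miR398b (0.885), miR398b-p5 (0.865) and miR166f-p5 (0.856). Each of these is lowest, or at 0, in the second C. hystrix library, where miR827 and miR395a are at 0. For miR169f-p3 they were miR156f (0.836), miR156b-p3 (0.819) and miR172c-p5 (0.797). For miR2111a they were miR164c-p3 (0.990), miR160a (0.984) and miR319a-3p (0.972), each at 0, like miR2111a, in the second C. sativus library, which all 4 share as their lowest point. The points share libraries and depth, and 8 libraries in 4 groups are few for such a measure.

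Families that other nutrients are known to act on were set beside the members, and were chosen with earlier results of these data known. Of the copper-linked families (miR397, miR398, miR408 and miR857, which limit copper proteins when copper is short), 10 sequences were tested and 3 were lower in the young than in the mature allotetraploid leaf, 0 higher, with a median log2 fold change of −4.65. Over all 208 sequences tested 1.92% were called and the median was −0.03. They were miR397 (−7.00 ± 1.62), a miR408 (−5.94 ± 1.39) and miR408-5p (−7.38 ± 1.56), each with an adjusted p of 0.03 in edgeR. miR408 was at 272.8 and 75.6 CPM in the young leaf against 17299.9 and 4242.8 in the mature leaf. Of 13 sequences of the families miR156, miR778 and miR828, which phosphate supply is known to affect in Arabidopsis, 1 was lower, miR156i-p3 at 0 and 0 CPM in the young leaf against 35.7 and 270.4 in the mature leaf, and 0 were higher, with a median of −3.08. Of 20 sequences of nitrate-linked families (miR393, miR167, miR160 and miR164) 0 were called in either direction, with a median of 0.20. In the other 4 comparisons 0 sequences of these 3 lists were called.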

How the data were processed

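Small RNA of 8 leaf libraries (TRIzol, Illumina HiSeq; the labels' protocols also mention oligo(dT) beads) was counted per listed miRNA. Bowtie 0.12.8 appears in the submitters' processing notes, while build, counting rule and mismatches are not given there. The raw reads that the authors deposited were taken as estimated counts, since 24 of 272 member values are not whole (within 1e-06), and were rounded. The normalized reads the authors deposited, a signal equal to the raw reads times 1 constant per library, served only for 1 alternative scaling. Of 843 lines, 733 distinct mature sequences were kept once each.

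edgeR 4.0.16 in R 4.3.3 (filterByExpr, TMM, robust quasi-likelihood test, 4 residual degrees of freedom, two-sided) was fitted to all 8 libraries with group as the term, and to family sums. P-values were Benjamini-Hochberg adjusted over all sequences within each of 5 comparisons (threshold 0.05). The SE is the log2 fold change divided by the square root of F. The code was tested on simulated data with a fixed spread that was not taken from these libraries. That test does not show which differences could be detected here. Duplexes were folded with ViennaRNA 2.7.2. Alternatives were DESeq2 1.42.0, limma 3.58.1, other scalings and filters, a replicate block and libraries left out. The members named are all those past the filter, and those under it with at least 10 reads. Members and lists were chosen with earlier results of these data known. The number of deposited columns that match no sample is 0.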

Additional observations from a re-analysis of the deposited data

How the results depend on the processing

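Of 21 alternatives, few changed a count of called members from 0. With only the groups compared, 2 of the 11 members tested there and 1 family sum were called between young and mature leaf. Of all 201 sequences, 21.4% were called there, so the members were near the general share. Without the second library of each parent, chosen after seeing the data, 2 of 15 members and the miR827 sum were called between the stages. Of all 307 sequences, 15.0% were called there. In that setting, with 1 library left in each parent, miR169r and the miR827 sum passed between the allotetraploid and C. sativus. Between the parents the miR827 sum passed. Leaving out 1 library gave 0 to 3 called members against C. sativus, 0 to 2 between the parents and 0 to 1 family sums against C. hystrix, each highest without the first library of that parent (between the parents, of C. sativus). The library left alone there was the one with 0 or few reads of these sequences. All other alternatives gave 0 calls.

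Directions turned for miR169 (cpa) between young and mature leaf (−3.71 to 0.97 over the fits that leave out 1 library, turned without the second mature library) and for miR169g against C. hystrix (−7.67 to 3.96, and 4.07 without the second library of both parents), C. sativus (−7.34 to 0.09) and the mid-parent (−7.50 to 0.27). Signs of other members also turned, under the scalings below among other settings. The causes were not tested. Over all members and alternatives, 69 of 1038 values of sequences and 59 of 524 of family sums changed sign. The young-to-mature difference of miR827 kept its sign in 21 of 21 alternatives (−3.27 to −2.21, adjusted p from 2.6e-04 to 0.99), as did that of miR169f-p3 (−2.33 to −1.60, 0.011 to 1). For both sequences both young libraries lay below both mature ones, so leaving out a library could hardly turn these signs. Scaling to conserved families moved the median of all sequences by −0.28 between the stages and by −1.27 against C. sativus. That scaling turned the sign of 0 of the 10 members between the stages, 4 against C. sativus and 7 between the parents. With total listed reads and no further scaling, 5 turned between the parents.

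The labels do not say whether replicate numbers pair the samples. Same-numbered libraries correlated at −0.12 to 0.27 in their deviations from the group means, which cannot decide it with 2 libraries a group. With the replicate block 0 members and 0 family sums were called in each of the 5 comparisons. With 2 libraries a group and 99196 to 464306 listed reads, depth limits the members: 24 of 34 did not pass the main filter. With no filter all 34 were tested, and with at least 10 CPM in 2 libraries 22, with 0 called.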
